A study of Mus musculus with 40 samples.

Results

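The gene set described here holds 40 genes of ribosome biogenesis, taken by symbol and matched to Ensembl IDs through GENCODE M21. It was chosen with earlier results of these data known. All 40 have a row in both deposited count tables, among 41388 gene IDs at P14 and 40548 at P0, and all 40 passed the filter on low counts at both ages (14394 and 14359 genes tested). By function, 3 are subunits of RNA polymerase I, 4 belong to box C/D and 4 to box H/ACA ribonucleoproteins, 11 act on the small and 13 on the large ribosomal subunit, 4 are abundant nucleolar proteins and 1, Srm, makes the polyamine spermidine. The RNA came from hematopoietic progenitors of mice, which the labels also call MPP (multipotent progenitors), at 14 days (P14) and at birth (P0). At P14 the 6 genotypes are wild type, FLT3-ITD (an internal tandem duplication that activates the Flt3 receptor kinase, below Flt3-ITD), NUP98-HOXD13 (which joins the nuclear pore protein NUP98 to the homeobox factor HOXD13, below NHD13), Runx1-HET (heterozygous for Runx1, a blood transcription factor), the double genotypes FLT3-ITD/NUP98-HOXD13 (below ITD/NHD13) and FLT3-ITD/Runx1-HET (below ITD/Runx1-HET). At P0 there are wild type, Flt3-ITD and ITD/NHD13; the P0 NHD13 samples are not analysed here. Each group has 4 libraries. The labels give no agent or treatment, no promoter for the fusion and no gate of the sort. Whether each library is an animal of its own is not in the labels, so a p-value here measures only the spread between these samples, which may be technical.

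Ribosome production starts in the nucleolus, where RNA polymerase I transcribes the precursor of the ribosomal RNAs. Box C/D particles methylate this RNA and box H/ACA particles turn chosen uridines into pseudouridine, while the small subunit processome and the large subunit factors cut, fold and export the 2 subunits. MYC proteins are known activators of many of these genes and bind the hexamer CACGTG, called an E-box, together with MAX. In blood progenitors the pathway is known for its link to growth and for the inherited anemias that follow when parts of it fail, among them mutations of Dkc1 and its partners in dyskeratosis congenita.

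The level of the set was summarised in each library as the mean over the 40 genes of log2 CPM (counts scaled to a common library size with TMM, prior count 2). At P14 this mean was 6.73 (SD 0.113, n = 4) in the wild type, 6.86 (SD 0.062) in Runx1-HET, 6.91 (SD 0.092) in ITD/Runx1-HET, 6.92 (SD 0.072) in NHD13, 7.02 (SD 0.132) in Flt3-ITD and 7.07 (SD 0.059) in ITD/NHD13. At P0 it was 6.72 (SD 0.12) in the wild type, 6.74 (SD 0.164) in ITD/NHD13 and 7.06 (SD 0.071) in Flt3-ITD. The libraries of neighbours in the P14 order overlap, whereas all 4 libraries of Flt3-ITD and all 4 of ITD/NHD13 lay above all 4 of the wild type. In Flt3-ITD at P0 all 4 libraries also lay above those of both other groups, while ITD/NHD13 overlapped the wild type. Levels are not compared between the ages, since each age is its own table. The mean rests partly on single libraries. Wild-type library 2 at P14, at 6.898, held the highest of the 4 wild-type values for 24 of the 40 genes and the lowest for 0. Flt3-ITD library 2, at 7.221, held the highest value of its group for 33 of 40.

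**Figure D1:**
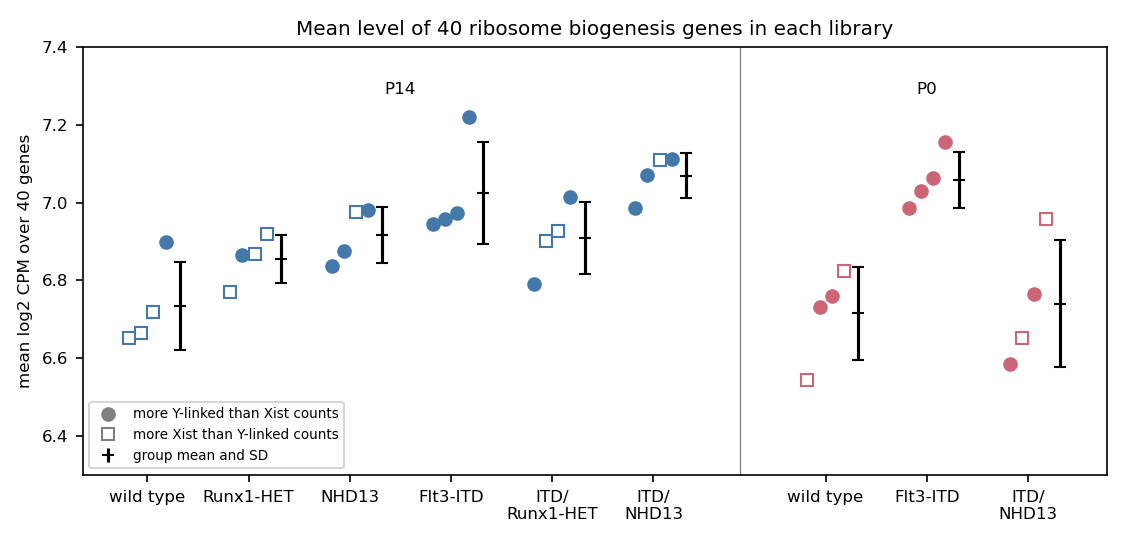
Mean log2 CPM over the 40 genes (y axis) in each of the 36 libraries, by genotype and age (x axis). Points are libraries in order of value, filled circles where Y-linked counts exceed Xist counts and open squares where they do not, and black marks give the group mean and SD. The P14 wild type spans 6.651 to 6.898 and ITD/NHD13 6.986 to 7.112.

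Sequencing depth was 13.7 to 27.3 M gene counts per library at P14 and 17.3 to 39.3 M at P0, and the biological coefficient of variation was 0.164 and 0.301. Over the set, the median coefficient of variation within a group was 8.8% at P14 and 15.5% at P0. The sexes of the libraries are uneven: by Y-linked against Xist counts, 1 of 4 wild-type libraries at P14 is of the Y-linked kind, as are 4 of 4 in Flt3-ITD, 3 of 4 in NHD13, 1 of 4 in Runx1-HET, 3 of 4 in ITD/NHD13 and 2 of 4 in ITD/Runx1-HET. Wild-type library 2 is the 1 of that kind. The 3 other wild-type libraries lay at 6.651 to 6.719, and the single ITD/NHD13 library with more Xist counts at 7.109. A term for this split called 0 of the 40 genes at P14 (0 under an unadjusted p of 0.05 against 2.7% of all genes, median 0.03 on the log2 scale), and 0 at P0 (6 under an unadjusted p of 0.05 against 12% of all genes, median -0.035). For Flt3-ITD at P14 the split and the genotype overlap in all but 1 of 8 libraries.

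All 12 progenitor markers, among them Kit, Flt3 and Cd34, were detected in every group. At P14 they summed to 8920 to 10300 CPM in the wild type, 9080 to 10300 in Runx1-HET, 9020 to 9480 in Flt3-ITD, 7580 to 9140 in NHD13, 7670 to 9070 in ITD/Runx1-HET and 7140 to 7730 in ITD/NHD13, where every library lay below every wild-type library. These markers and those of other cells moved beside the set, and their part in its changes was not tested. The 10 granulocyte-monocyte progenitor markers summed to 828 to 1110 CPM in the P14 wild type, 1970 to 2470 in Flt3-ITD, 889 to 1180 in NHD13, 867 to 1760 in Runx1-HET, 682 to 1340 in ITD/NHD13 and 1070 to 3660 in ITD/Runx1-HET, with none at 0 in any group, and 5 of the 10 rose in Flt3-ITD, where 3.84% of all genes rose. The 10 erythroid markers summed to 106 to 131 CPM in the wild type, 44.1 to 50.2 in Flt3-ITD, 292 to 473 in NHD13, 115 to 231 in Runx1-HET, 104 to 139 in ITD/NHD13 and 131 to 224 in ITD/Runx1-HET. In the same order the 6 megakaryocyte markers summed to 78.1 to 102, 56 to 68.5, 275 to 996, 76.2 to 115, 172 to 440 and 54.6 to 68.7 CPM, and the 9 macrophage and dendritic cell markers to 52.3 to 64.7, 85.9 to 107, 47.3 to 56.5, 51.2 to 72.6, 59.8 to 67.2 and 174 to 258, with 1 of the 9 at 0 in ITD/Runx1-HET. The 8 T and NK cell markers summed to 407 to 479 CPM in the wild type, 513 to 566 in Flt3-ITD, 175 to 269 in NHD13, 220 to 273 in Runx1-HET, 255 to 278 in ITD/NHD13 and 371 to 481 in ITD/Runx1-HET, with 2 of the 8 at 0 in Runx1-HET and 1 in each other P14 group. The 7 mast cell, basophil and eosinophil markers summed to 227 to 861 CPM in the wild type, 25 to 83.5 in Flt3-ITD, 140 to 420 in NHD13 and 36 to 590 in Runx1-HET. They summed to 36.4 to 129 in ITD/NHD13 and 18.8 to 27.5 in ITD/Runx1-HET, with 1 of them at 0 in Flt3-ITD and in ITD/Runx1-HET. The 20 proliferation genes summed to 7530 to 8430 CPM in the wild type, 7870 to 8910 in Flt3-ITD and 7450 to 8790 in NHD13. They summed to 7850 to 8710 in Runx1-HET, 7460 to 8010 in ITD/NHD13 and 7100 to 8630 in ITD/Runx1-HET. Their part in the changes of the set was not tested. Of these 20, 0 passed in Flt3-ITD (2 lay under an unadjusted p of 0.05, as did 21.2% of all genes) and 4 fell in ITD/NHD13 (12.2% of all genes fell). In bulk RNA, fewer cells of a type and less RNA per cell cannot be told apart.

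The set spans a wide range of levels. Per kilobase of the longest coding transcript, in the P14 wild type, Npm1 stood highest at 643 CPM per kilobase (SD 90, n = 4), followed by Nop56 at 279 (SD 21.4) and Nhp2 at 195 (SD 10.7). Npm1 encodes nucleophosmin, a nucleolar histone chaperone that is itself mutated in myeloid leukemia; Nop56 is a core protein of box C/D particles and Nhp2 of box H/ACA particles. Nhp2 and the next gene, Ncl at 190 (SD 20), do not differ beyond their spread. The order depends on the annotated length, and which transcript was expressed was not measured. Ncl was divided by 8202 bases and had the highest CPM of the set before that (1560). At the low end lay Noc3l at 7.09 (SD 0.857), Utp20 at 5.37 (SD 1.38) and Rrs1 at 4.29 (SD 1.05). Among the 40 genes, 8 (20%) carry annotated small nucleolar RNA genes inside their span (Nop56, Nop58, Dkc1, Wdr43, Tsr1, Ppan, Gnl3 and Ncl), against 246 of 21397 protein-coding genes (1.15%). Exons of Tsr1 overlap those of Srr on the opposite strand over 32.3% of their length, and those of Noc2l overlap Samd11 over 20.9%. The strand setting of the counting is not given in the sources used here, so reads of these pairs cannot be told apart.

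Promoter windows of RefSeq (GRCm38.p6, 250 bases before to 50 after the start) were found for 34 of the 40 genes, in 38 windows. The E-box CACGTG was searched on both strands and stood in 7 of these windows (18.4%), against 7.2% of 32851 windows of all genes. The motif of the respiratory factor NRF1 was in 8 (21.1%, against 4.6%). CCGGAAG, an ETS family site, was in 14 windows (36.8%, against 8.9%), AANATGGC, a YY1 site, in 1 (2.6%, against 6.1%) and TATAAA in 3 (7.9%, against 13.6%). A match is a description of the letters and not a measured site. The F statistic over the P14 groups weighs differences between groups against the spread within them. Of the 8 genes where it was highest, Npm1 and Srm have no window, and of the others only Utp4 holds an E-box. Its window shows where an E-box can lie beside the start of a gene that changed, and it is set out with the next 3 genes by F statistic that hold one, which were added after their values were seen. Each stretch runs 5′ to 3′ on the gene's strand from 100 bases before to 50 after the start, with CACGTG and the NRF1 match in capitals.
Utp4 (chr8:106893540-106893689, plus strand): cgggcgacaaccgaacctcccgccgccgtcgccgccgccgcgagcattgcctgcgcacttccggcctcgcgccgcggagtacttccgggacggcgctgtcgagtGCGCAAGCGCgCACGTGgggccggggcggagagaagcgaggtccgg
Mybbp1a (chr11:72441227-72441376, plus strand): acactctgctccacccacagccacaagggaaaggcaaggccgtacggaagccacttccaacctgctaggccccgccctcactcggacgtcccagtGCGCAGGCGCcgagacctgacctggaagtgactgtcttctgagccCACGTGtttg
Wdr43 (chr17:71616115-71616264, plus strand): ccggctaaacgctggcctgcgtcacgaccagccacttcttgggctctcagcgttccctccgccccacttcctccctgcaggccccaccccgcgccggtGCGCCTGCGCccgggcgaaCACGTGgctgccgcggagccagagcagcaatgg
Nop2 (chr6:125131783-125131932, plus strand): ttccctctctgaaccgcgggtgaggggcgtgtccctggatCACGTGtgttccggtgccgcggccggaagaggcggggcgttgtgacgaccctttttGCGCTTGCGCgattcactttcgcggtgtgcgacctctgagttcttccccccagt
Counted from the first transcribed base as 1, the E-box begins at 16 in Utp4, 41 in Mybbp1a, 18 in Wdr43 and -60 in Nop2, and the NRF1 match at 5, -5, -2 and -4. All 4 genes rose in Flt3-ITD at P14, but they were picked by an F statistic that includes these groups. Their rise is therefore not independent of the choice. Over the matched genes, 4 of the 7 with an E-box, these same 4, rose in Flt3-ITD (median log2 fold change 0.295 over the 7). So did 13 of the 27 without one (median 0.292).

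Across the 6 P14 genotypes, 23 of the 40 genes differed in an edgeR quasi-likelihood test of all groups (57.5%, against 37.8% of all genes tested). Since the set was chosen with earlier results of these data known, its shares, here and below, are not independent of that choice. Against the wild type, 19 genes of the set rose in Flt3-ITD and 0 fell, where 3.84% of all genes rose and 4.76% fell. All 40 fold changes were positive (median 0.29 on the log2 scale, range 0.03 to 0.58), and in 16 genes all Flt3-ITD libraries lay above all wild-type ones (5.11% of all genes). The count of 19 rests on single libraries: it was 10 without Flt3-ITD library 2, 11 without wild-type library 3 and 11 without wild-type library 4. Counts with a library left out, here and below, are given without the share of all genes called in the same fit. With a term for the Y-linked split the count was 8, where the calls over all genes fell from 1238 to 691, and the median was 0.278 with all 40 still positive.

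In NHD13, 7 genes rose and 0 fell, where 7.12% of all genes rose and 8.75% fell, with 39 of 40 fold changes positive and a median of 0.163. In 5 genes all NHD13 libraries lay above the wild type (7.79% of all genes). The count of 7 became 2 without wild-type library 3, 3 without wild-type library 4, 3 without NHD13 library 2, 4 without NHD13 library 1 and 3 with the term for the Y-linked split. In Runx1-HET 0 of the 40 passed edgeR's test (0.257% of all genes rose and 0.521% fell), although 35 were positive (median 0.141) and 10 lay under an unadjusted p of 0.05 (8.91% of all genes). In 2 genes, Dkc1 and Utp4, no library overlapped (2.04% of all genes). DESeq2 also called 0, and without wild-type library 4 edgeR called 1. In ITD/NHD13, 23 rose and 0 fell (10.2% of all genes rose and 12.2% fell), all 40 were positive (median 0.334, range 0.02 to 0.65), and in 22 genes no library overlapped the wild type (10.2% of all genes). Leaving out any 1 library left 18 to 25. In ITD/Runx1-HET, 12 rose and 0 fell (10.7% of all genes rose and 12% fell), 33 were positive, the median was 0.159 and 10 genes stood above the wild type without overlap (8.62% of all genes); without wild-type library 3 the count was 7. The median over all genes was within 0.022 of 0 in each of these comparisons. The 5 comparisons share the 4 wild-type libraries.

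**Figure D2:**
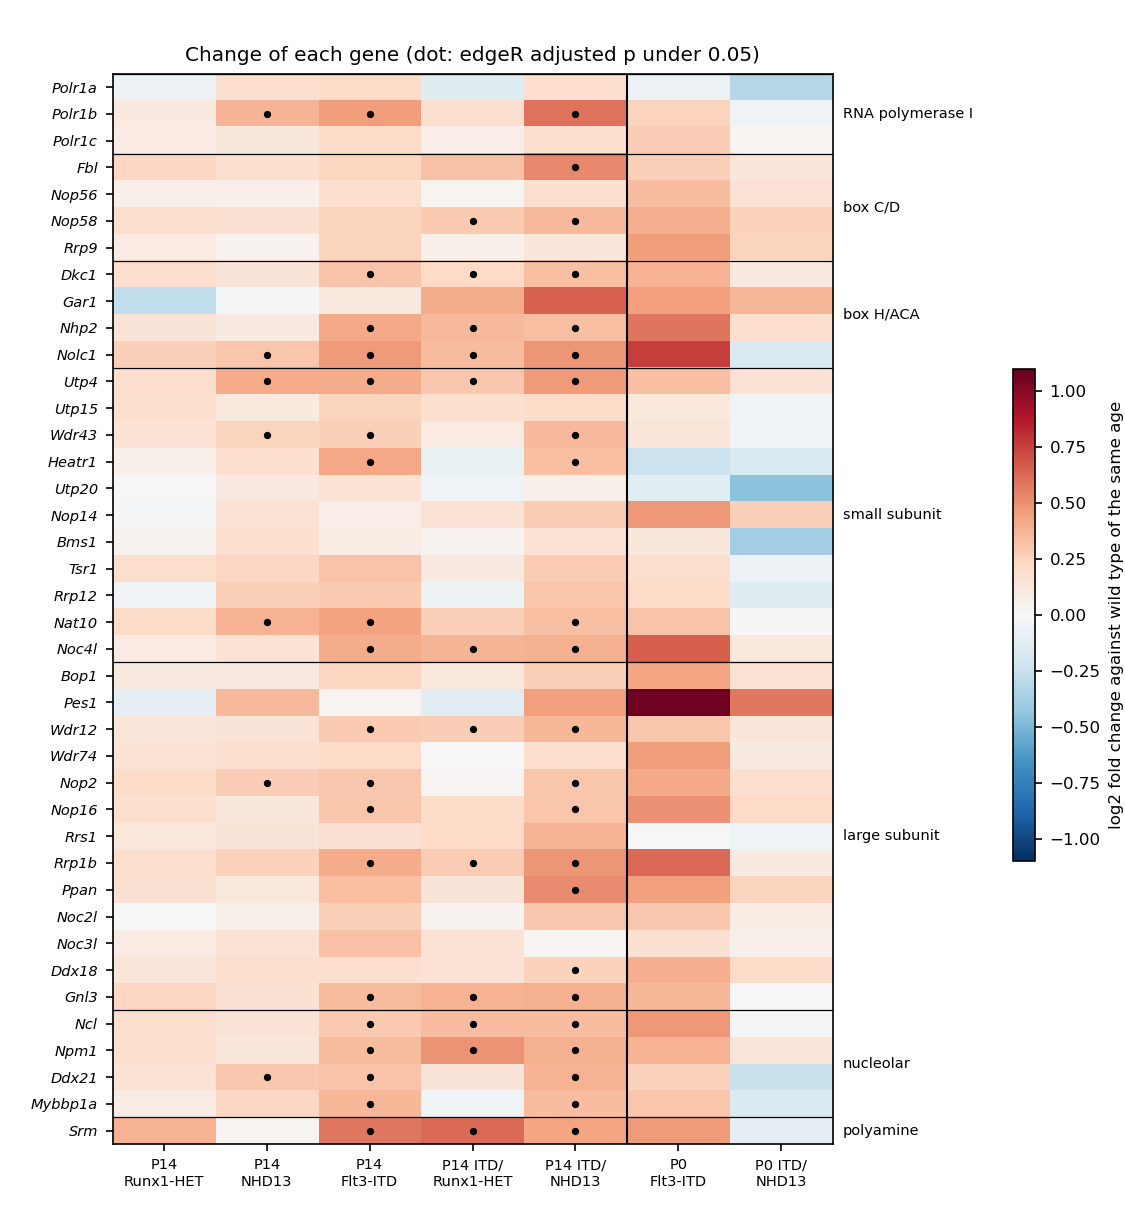
Log2 fold change of each of the 40 genes (rows, grouped by function) against the wild type of the same age, for the 5 P14 and 2 P0 genotypes (columns). Red is higher and blue lower than the wild type, and dots mark genes that passed edgeR's test. ITD/NHD13 at P14 has 23 dots and the P0 columns have 0.

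Of the RNA polymerase I subunits, Polr1b, which encodes the second-largest subunit of the catalytic core, had the highest F statistic of all 40 genes over the P14 groups. With each group's 4 libraries given from lowest to highest, here and below, it lay at 87.0, 94.7, 102 and 107 CPM in the wild type, 99.0, 99.6, 109 and 115 in Runx1-HET and 122, 122, 129 and 135 in NHD13. With Flt3-ITD it lay at 122, 127, 129 and 161, with NHD13 added at 138, 144, 155 and 157 and with Runx1-HET added at 90.0, 106, 120.3 and 127. Every library of NHD13, Flt3-ITD and ITD/NHD13 stood above every wild-type library, and every library of ITD/NHD13 above every NHD13 library. Polr1b rose by 0.37 ± 0.10 (adjusted p = 0.00741) in NHD13, by 0.46 ± 0.10 (adjusted p = 0.00242) in Flt3-ITD and by 0.60 ± 0.10 (adjusted p = 3.12e-05) in ITD/NHD13, each log2 fold change with its SE and edgeR's adjusted p. In ITD/Runx1-HET it was at 0.18 ± 0.10 (adjusted p = 0.195) and did not pass. The other 2 subunits, Polr1a (the largest) and Polr1c (shared with RNA polymerase III), passed in none of the 5 comparisons with the wild type.

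In the box C/D group, none of the 4 genes passed in Flt3-ITD or NHD13. Fbl, fibrillarin, the methyltransferase of these particles, was counted at only 7.35, 9.69, 9.97 and 10.4 CPM in the P14 wild type and 11.8, 12.8, 13.6 and 15.4 in ITD/NHD13, where no library overlapped and it rose by 0.53 ± 0.14 (adjusted p = 0.00471). How reads that map to several places were counted is not given in the sources used here. Nop58 rose in ITD/NHD13 (0.36 ± 0.08, adjusted p = 0.00132) and in ITD/Runx1-HET (0.28 ± 0.08, adjusted p = 0.0111). Nop56 and Rrp9, which recognises the U3 RNA, passed in none. Rrp9 lay at 22.8, 30.3, 32.1 and 33.8 CPM in the wild type and 31.5, 33.3, 35.8 and 40.6 in Flt3-ITD, with overlapping libraries. Its F statistic over the P14 groups was among the 3 lowest.

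In the box H/ACA group, Nhp2, Dkc1 (dyskerin, the pseudouridine synthase) and Nolc1 (a chaperone of these particles) rose in each of the 3 genotypes with Flt3-ITD. Among all genes, 3.84% rose in Flt3-ITD, 10.2% in ITD/NHD13 and 10.7% in ITD/Runx1-HET. Nhp2 lay at 188, 204, 206 and 215 CPM in the wild type, 209, 219, 233 and 238 in Runx1-HET and 205, 210.1, 225 and 229 in NHD13. It lay at 248, 249, 279.7 and 309.6 in Flt3-ITD, 244, 256, 258 and 266 in ITD/NHD13 and 242, 252, 257 and 292 in ITD/Runx1-HET. All 12 libraries with Flt3-ITD stood above all 12 without it. The log2 fold changes against the wild type were 0.42 ± 0.08 (adjusted p = 0.000418), 0.33 ± 0.08 (adjusted p = 0.00156) and 0.36 ± 0.08 (adjusted p = 0.000904), in the same order, and 0.10 ± 0.08 (adjusted p = 0.473) in NHD13.

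Nolc1 lay at 208, 216, 223 and 296 CPM in the P14 wild type and 301, 308, 308 and 384 in Flt3-ITD. ITD/NHD13 gave 309, 317, 336 and 357, NHD13 253, 283, 304 and 325 and ITD/Runx1-HET 265, 274, 304 and 355. The highest wild-type library, library 2, reached into the range of NHD13 and of ITD/Runx1-HET, and stayed below Flt3-ITD and ITD/NHD13. Nolc1 rose in Flt3-ITD (0.47 ± 0.10, adjusted p = 0.00384), in ITD/NHD13 (0.49 ± 0.10, adjusted p = 0.000884), in ITD/Runx1-HET (0.35 ± 0.10, adjusted p = 0.0164) and in NHD13 (0.31 ± 0.10, adjusted p = 0.0441). The NHD13 call of Nolc1 was lost without NHD13 library 1, 2 or 3 (adjusted p 0.0895, 0.163 and 0.0623) and without wild-type library 1, 3 or 4 (0.104, 0.123 and 0.0994). It was also lost with the term for the Y-linked split (0.12), with library totals in place of TMM (0.0621) and without the filter on low counts (0.0568). Gar1, the fourth gene, had the widest spread of the set at P14, with a median coefficient of variation of 26.1%, and passed in no comparison with the wild type.

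In the small subunit group, 5 of 11 genes rose in Flt3-ITD, 3 in NHD13, 5 in ITD/NHD13 and 2 in ITD/Runx1-HET. Of all genes, 3.84%, 7.12%, 10.2% and 10.7% rose, in the same order. Utp4, Utp15, Wdr43 and Heatr1 belong to the complex that joins the RNA precursor first, and all but Utp15 rose in Flt3-ITD. Utp4 lay at 152, 155, 185 and 185 CPM in the wild type, 186, 189, 193 and 204 in Runx1-HET, 211, 218, 226 and 240.5 in NHD13 and 199, 211, 226 and 263 in Flt3-ITD. It lay at 219.9, 234, 236 and 248 in ITD/NHD13 and 185, 187, 209 and 250.1 in ITD/Runx1-HET. In each genotype but the last, where the lowest library lay just under the highest of the wild type, no library overlapped the wild type. Utp4 rose by 0.41 ± 0.09 (adjusted p = 0.00226) in NHD13, 0.41 ± 0.09 (adjusted p = 0.00419) in Flt3-ITD, 0.47 ± 0.09 (adjusted p = 0.00034) in ITD/NHD13 and 0.30 ± 0.09 (adjusted p = 0.0207) in ITD/Runx1-HET.

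Nat10, which acetylates small subunit RNA, lay at 68.1, 77.6, 78.2 and 98.2 CPM in the wild type, 97.9, 102, 103 and 134 in Flt3-ITD and 95.0, 99.3, 106 and 119 in NHD13, with wild-type library 2 inside both ranges. It rose in Flt3-ITD (0.44 ± 0.11, adjusted p = 0.0129) and in NHD13 (0.38 ± 0.11, adjusted p = 0.0202). In Flt3-ITD the Nat10 call was lost without Flt3-ITD library 2 (adjusted p 0.0932) or wild-type library 4 (0.057) and with the term for the Y-linked split (0.0569), and in NHD13 without NHD13 library 2 (0.0908), wild-type library 3 (0.0506) or wild-type library 4 (0.0777). Noc4l, a partner of Nop14, rose in the 3 genotypes with Flt3-ITD, by 0.37 ± 0.10 (adjusted p = 0.00985) in ITD/Runx1-HET. Bms1, a GTPase of the processome, and Utp20 had the lowest F statistics over the P14 groups, with Rrp9. Bms1 lay at 61.4, 70.5, 81.1 and 83.2 CPM in the wild type and 74.5, 82.1, 85.8 and 88.8 in ITD/NHD13, and Utp20 at 33.6, 45.1, 47.8 and 63.2 and 42.2, 51.0, 51.3 and 53.1, both with overlapping libraries.

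In the large subunit group, 5 of 13 genes rose in Flt3-ITD (Wdr12, Nop2, Nop16, Rrp1b and Gnl3), 1 in NHD13 (Nop2), 7 in ITD/NHD13 and 3 in ITD/Runx1-HET. The shares of all genes that rose were 3.84%, 7.12%, 10.2% and 10.7%, in the same order. Wdr12, which forms a complex with Pes1 and Bop1, lay at 208, 212, 248 and 252 CPM in the wild type, 259, 282, 283 and 303 in Flt3-ITD, 282, 284, 309 and 309 in ITD/NHD13 and 259, 263, 287 and 298 in ITD/Runx1-HET. All 3 genotypes with Flt3-ITD stood clear of the wild type, by 0.29 ± 0.07 (adjusted p = 0.00898), 0.36 ± 0.07 (adjusted p = 0.000386) and 0.27 ± 0.07 (adjusted p = 0.00803) in that order. Its partners Pes1 and Bop1 passed in none of the comparisons with the wild type. Pes1 spread widely within groups, at 149.5, 157, 245 and 265 CPM in NHD13 and 153, 181, 256 and 278 in ITD/NHD13.

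Rrp1b lay at 160.1, 165, 193 and 197 CPM in the wild type, 194, 208, 218 and 234 in NHD13 and 212, 219, 228 and 287 in Flt3-ITD. It lay at 226, 239.9, 259 and 276 in ITD/NHD13 and 206, 207, 213 and 241 in ITD/Runx1-HET. The wild type overlapped NHD13 and none of the 3 groups with Flt3-ITD, where Rrp1b rose by 0.41 ± 0.09 (adjusted p = 0.00437), 0.49 ± 0.09 (adjusted p = 0.000209) and 0.28 ± 0.09 (adjusted p = 0.0298). Gnl3, nucleostemin, a nucleolar GTPase of stem and progenitor cells, rose by 0.38 ± 0.10 (adjusted p = 0.00548) in ITD/Runx1-HET. Ppan lay at 39.2, 45.5, 46.4 and 47.2 CPM in the wild type and 52.7, 66.4, 67.0 and 69.2 in ITD/NHD13, where it rose by 0.52 ± 0.11 (adjusted p = 0.000743) with no overlap.

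The 4 nucleolar proteins all rose in Flt3-ITD and in ITD/NHD13, where 3.84% and 10.2% of all genes rose. Ncl encodes nucleolin, which binds the precursor RNA. It lay at 1379.9, 1545, 1554 and 1779 CPM in the wild type, 1812, 1872, 1885 and 2064 in Flt3-ITD, 1871, 1942, 2008 and 2102 in ITD/NHD13 and 1905, 1994, 1994 and 2046 in ITD/Runx1-HET. In these 3 genotypes no library overlapped the wild type, and Ncl rose by 0.29 ± 0.07 (adjusted p = 0.0102), 0.34 ± 0.07 (adjusted p = 0.00075) and 0.34 ± 0.07 (adjusted p = 0.000881).

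Npm1 lay at 939.6, 949.8, 1049 and 1257 CPM in the wild type, 1063, 1187, 1200.0 and 1292 in Runx1-HET, 1042, 1129.7, 1186 and 1224 in NHD13 and 1251, 1323, 1370.1 and 1386 in Flt3-ITD. It lay at 1198, 1341, 1387 and 1564 in ITD/NHD13 and 1428, 1465, 1489 and 1509 in ITD/Runx1-HET. Only in the last did every library exceed all of the wild type, whose library 1 lay inside the Flt3-ITD range, and there every library also exceeded all of Flt3-ITD. Npm1 rose by 0.34 ± 0.09 (adjusted p = 0.00937) in Flt3-ITD, 0.39 ± 0.09 (adjusted p = 0.00121) in ITD/NHD13 and 0.49 ± 0.09 (adjusted p = 0.000118) in ITD/Runx1-HET. Srm, spermidine synthase, was low and spread in the wild type, at 17.6, 20.8, 25.7 and 32.8 CPM, and lay at 34.6, 34.6, 34.8 and 40.5 in Flt3-ITD, 33.9, 34.6, 34.9 and 45.2 in ITD/Runx1-HET, 30.3, 31.3, 33.4 and 35.0 in ITD/NHD13 and 21.0, 23.6, 24.8 and 28.9 in NHD13. It rose by 0.58 ± 0.14 (adjusted p = 0.00609), 0.62 ± 0.14 (adjusted p = 0.00141) and 0.43 ± 0.14 (adjusted p = 0.0228) in the 3 genotypes with Flt3-ITD and was at 0.03 ± 0.14 (adjusted p = 0.935) in NHD13. The highest wild-type library, library 4, reached into the range of ITD/NHD13 and stood above all 4 NHD13 libraries.

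**Figure D3:**
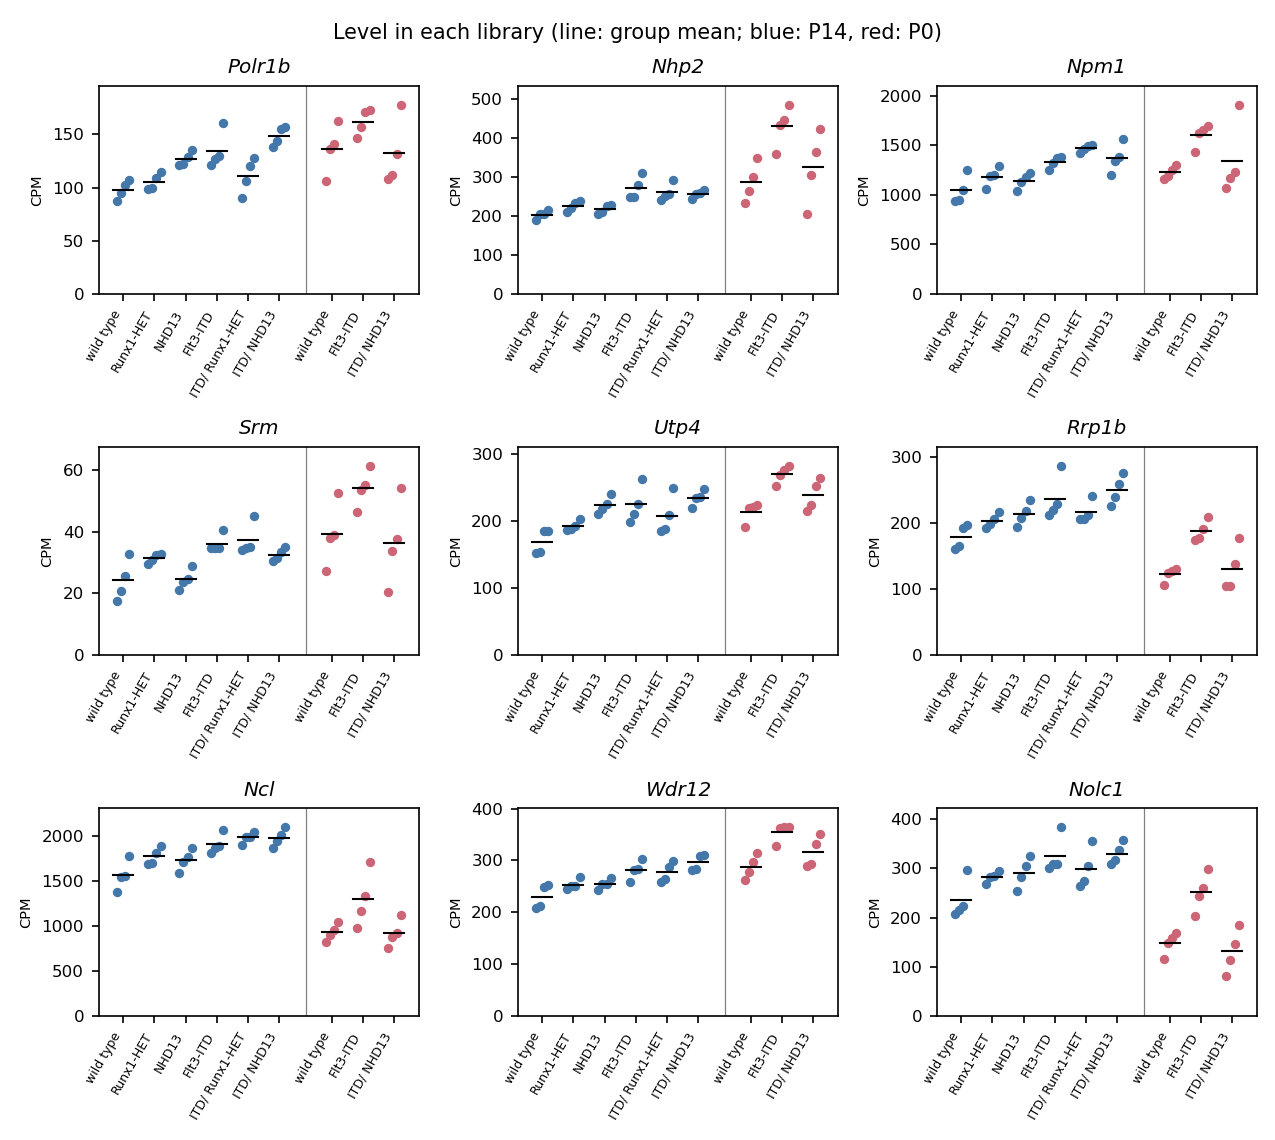
CPM (y axis, from 0) of 9 genes in every library, by genotype (x axis), with P14 in blue and P0 in red and a line at each group mean. Nhp2 in the P14 libraries with Flt3-ITD lies above all other P14 libraries, while in Npm1 wild-type library 1 reaches into the Flt3-ITD range.

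Direct comparisons asked what the second mutation adds. Adding NHD13 to Flt3-ITD at P14 gave a median difference of 0.022, with 24 of 40 positive. Here 0 of 40 passed edgeR's test (6.35% of all genes rose and 7.18% fell), 4 had an unadjusted p below 0.05 (24.3% of all genes) and DESeq2 called 0. Without library 1 of ITD/NHD13, 3 passed. Adding Flt3-ITD to NHD13 gave a median of 0.133 with 35 of 40 positive, with 8 genes above NHD13 in every library (6.26% of all genes). Ppan alone rose (0.40 ± 0.11, adjusted p = 0.0232), where 2.65% of all genes did. Ppan lay at 40.2, 48.0, 51.0 and 54.3 CPM in NHD13. Its call was lost without library 2, 3 or 4 of ITD/NHD13 (adjusted p 0.0794, 0.0724 and 0.0841) or NHD13 library 3 or 4 (0.0602 and 0.126), and without NHD13 library 1 the count was 3.

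Adding Runx1-HET to Flt3-ITD gave lower values in 31 of 40 genes (median -0.125), and 2 fell (3.9% of all genes fell), Heatr1 and Mybbp1a. Heatr1 and Wdr43 lay below Flt3-ITD in every library (6.32% of all genes). For Wdr43 the groups all but touched, at 334.05 CPM in the highest ITD/Runx1-HET library and 334.06 in the lowest of Flt3-ITD. Heatr1, a scaffold of the early processome complex, lay at 73.96, 77.3, 84.5 and 102 CPM in Flt3-ITD and 52.5, 55.0, 63.2 and 66.3 in ITD/Runx1-HET, with no overlap (-0.51 ± 0.12, adjusted p = 0.00637). Mybbp1a, a nucleolar repressor of RNA polymerase I transcription, lay at 421, 448, 452 and 610.0 and 306, 361, 371 and 423, with overlap (-0.40 ± 0.11, adjusted p = 0.0171). Without Flt3-ITD library 2 neither passed (adjusted p 0.0511 for Heatr1 and 0.139 for Mybbp1a). The Mybbp1a call was also lost without library 2 (0.0512) or 4 (0.101) of ITD/Runx1-HET and with the term for the Y-linked split (0.0671), while without its library 3 the count was 6. Adding Flt3-ITD to Runx1-HET gave a median of 0.032, and 1 gene rose (6.69% of all genes did). This was Npm1 (0.31 ± 0.09, adjusted p = 0.012), which fell short without Runx1-HET library 3 (adjusted p 0.0618); without library 1 or library 3 of ITD/Runx1-HET the count was 3.

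The interactions test whether a double genotype departs from the sum of both single changes on the log2 scale. For Flt3-ITD and NHD13, 34 of 40 values were negative (median -0.151), 0 passed, 3 had an unadjusted p below 0.05 (8.96% of all genes) and DESeq2 called 0; 0.535% of all genes passed. For Flt3-ITD and Runx1-HET, 38 of 40 were negative (median -0.253, against 0.006 over all genes). There 0 passed edgeR's test (1.68% of all genes did), 15 had an unadjusted p below 0.05 (11.4% of all genes) and DESeq2 called 1. The smallest p belonged to Nop2, a methyltransferase of large subunit RNA (-0.46 ± 0.13, adjusted p = 0.0626), which was singled out after its value was seen. Without library 3 of ITD/Runx1-HET 4 genes passed, without wild-type library 2 there were 2, and without Flt3-ITD library 4 or Runx1-HET library 4 there was 1.

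The spread between libraries was wider at P0. Sex was uneven there too: 4 of 4 Flt3-ITD libraries are of the Y-linked kind, against 2 of 4 in the wild type and 2 of 4 in ITD/NHD13. Depth was 28.4 to 39.3 M gene counts in Flt3-ITD, 23.6 to 38.8 M in the wild type and 17.3 to 30.9 M in ITD/NHD13. The part of depth in the P0 values was not tested. In Flt3-ITD 37 of 40 genes had a positive fold change (median 0.352, range -0.23 to 1.07), and in 19 all Flt3-ITD libraries lay above all wild-type ones (5.51% of all genes). None of the 40 passed edgeR's test, where 0.00696% of all genes rose, 22 had an unadjusted p below 0.05 (10.2% of all genes), and DESeq2 called 2. Nolc1 was the only gene to differ over the 3 P0 groups (2.64% of all genes did), a gene named after its value was seen. It lay at 117, 149, 159 and 168 CPM in the wild type, 203, 243, 261 and 298 in Flt3-ITD and 81.5, 114, 146 and 185 in ITD/NHD13. Flt3-ITD stood above both other groups without overlap, and those 2 overlapped. Against Flt3-ITD, Nolc1 fell in ITD/NHD13 (-0.93 ± 0.21, adjusted p = 0.0264), where 1.14% of all genes did, while against the wild type Flt3-ITD was at 0.76 ± 0.21 (adjusted p = 0.285).

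The P0 calls of Nolc1 rest on single libraries. The test over 3 groups was lost without Flt3-ITD library 1, 2 or 4 (adjusted p 0.117, 0.106 and 0.0894), library 1 of ITD/NHD13 (0.0716) or any wild-type library (0.0534 to 0.0647) and with library totals in place of TMM (0.0548), and without library 2, 3 or 4 of ITD/NHD13 it called 2 genes of the set. The fall against Flt3-ITD was lost without Flt3-ITD library 1, 2 or 4 (0.0749, 0.066 and 0.0603) or without library 1 or 4 of ITD/NHD13 (0.0625 and 0.0502). Without library 3 of ITD/NHD13, 3 genes of the set fell. Over the whole set, ITD/NHD13 at P0 gave a median of 0.09 against the wild type with 24 of 40 positive. Here 0 of the 40 passed, 0 had an unadjusted p below 0.05 (11.2% of all genes) and DESeq2 called 0 (1.11% of all genes rose and 0.975% fell). Against Flt3-ITD the median was -0.255, with 39 of 40 negative, 11 under an unadjusted p of 0.05 (15.7% of all genes) and 3 below Flt3-ITD in every library (3.78% of all genes). Nhp2 shows the pattern, at 232, 263, 299.9 and 348 CPM in the P0 wild type, 359, 433, 445 and 485 in Flt3-ITD and 206, 306, 365 and 422 in ITD/NHD13. Granulocyte-monocyte progenitor markers at P0 summed to 1370 to 2140 CPM in the wild type, 1690 to 2480 in Flt3-ITD and 578 to 1410 in ITD/NHD13. In the same order progenitor markers summed to 7900 to 10600, 6830 to 8640 and 5610 to 8610 CPM, T and NK cell markers to 279 to 407, 276 to 543 and 161 to 205, and erythroid markers to 198 to 410, 173 to 314 and 323 to 621. Proliferation genes summed to 6770 to 7650 CPM in the P0 wild type, 7050 to 8310 in Flt3-ITD and 5950 to 6860 in ITD/NHD13, every library of which lay below every Flt3-ITD library. Mki67, a proliferation marker, was the 1 of 20 that fell in ITD/NHD13 against the wild type (-1.73 ± 0.35, adjusted p = 0.0131). The part of these markers and genes in the P0 values was not tested.

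The 2 ages were compared as changes, each against its own wild type, in 1 fit of all 36 libraries (14984 genes). Age and sequencing table are 1 split and cannot be told apart. The test of a difference between ages in the Flt3-ITD change called 0 genes of the set (3 of 40 under an unadjusted p of 0.05 against 7.62% of all genes, DESeq2 called 0, 0.194% of all genes passed), with a median difference of -0.039. Since all 40 were positive at P14, the 37 genes that were positive at P0 share that sign of necessity. Across the 40 genes, which are not independent replicates, the sizes of the changes at the 2 ages had a Pearson r of 0.04 and a Spearman rho of 0.15. In ITD/NHD13 the change at P14 was the more positive in 37 of 40 genes (median difference 0.302, against 0.012 over all genes). Of the 40, 13 lay under an unadjusted p of 0.05 (16.8% of all genes) and 1 passed, Polr1b (1.37% of all genes passed in that direction). Polr1b was at -0.04 ± 0.17 (adjusted p = 0.969) at P0, and the difference was 0.67 ± 0.18 (adjusted p = 0.0289). P0 libraries of Polr1b lay at 106, 136, 141 and 163 CPM in the wild type and 108, 112, 132 and 178 in ITD/NHD13, and the groups overlap. Leaving out any 1 of 10 of the 16 libraries ended this call of Polr1b (adjusted p 0.0513 to 0.0866). These are libraries 2, 3 and 4 of ITD/NHD13 and wild-type libraries 3 and 4 at P14, and libraries 1 and 2 of ITD/NHD13 and wild-type libraries 1, 3 and 4 at P0. Without P0 library 3 of ITD/NHD13, 9 genes passed, and without P14 wild-type library 2, 3 did.

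**Figure D4:**
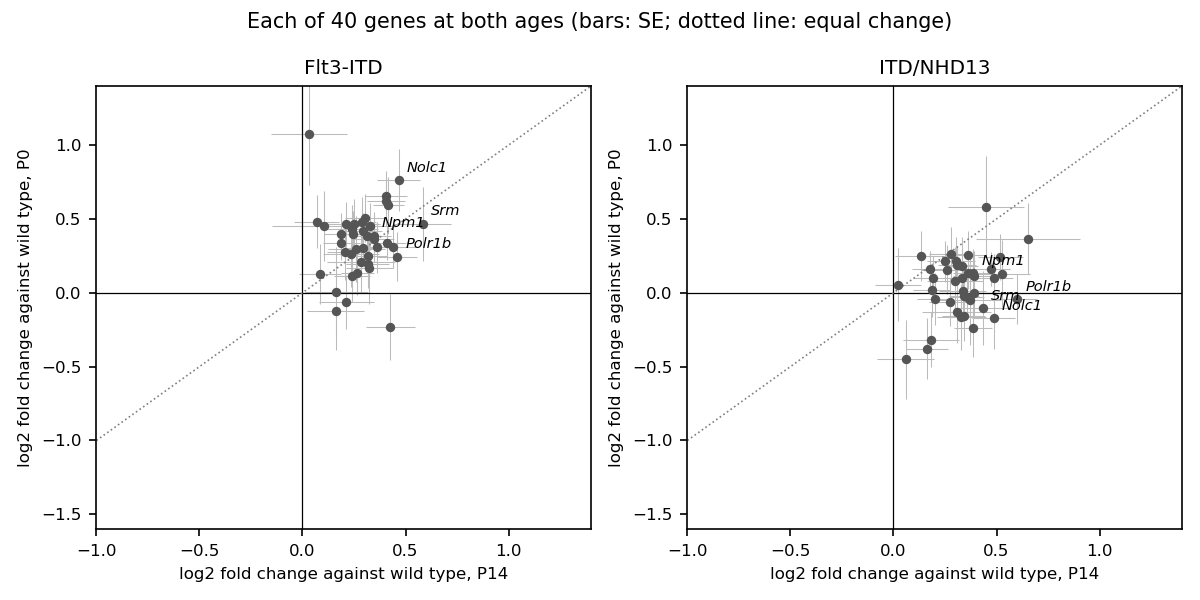
Log2 fold change against the wild type of the same age at P14 (x axis) and P0 (y axis) for each of the 40 genes, in Flt3-ITD (left) and ITD/NHD13 (right). Bars are SE and the dotted line marks equal change. On the left 37 genes lie above 0 at both ages, and on the right 24 do.

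Other genes of the pathway were taken from lists that hold no gene of the set, and 137 were tested. These lists too were chosen with earlier results of these data known. In Flt3-ITD 10 rose (7.3%, against 3.84% of all genes) and 0 fell, with a median of 0.158. In NHD13 7 rose (5.11%, below the 7.12% of all genes) and 1 fell, with a median of 0.106. In ITD/NHD13 44 rose (32.1%, against 10.2%) and 0 fell, with a median of 0.199, and in ITD/Runx1-HET 18 rose (13.1%, against 10.7%) and 3 fell, with a median of 0.101. In Runx1-HET edgeR called 0, with 19 under an unadjusted p of 0.05 (13.9%, against 8.91% of all genes). At P0 0 of 137 passed edgeR's test in either comparison with the wild type, with 30 under an unadjusted p of 0.05 in Flt3-ITD (21.9%, against 10.2%) and 6 in ITD/NHD13 (4.38%, against 11.2%). By role, in ITD/NHD13, where 10.2% of all genes rose, 4 of 17 RNA polymerase I genes, 7 of 11 genes of small nucleolar particles and their assembly, 13 of 41 small subunit, 15 of 44 large subunit, 4 of 14 exosome and 1 of 10 polyamine genes rose.

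**Figure D5:**
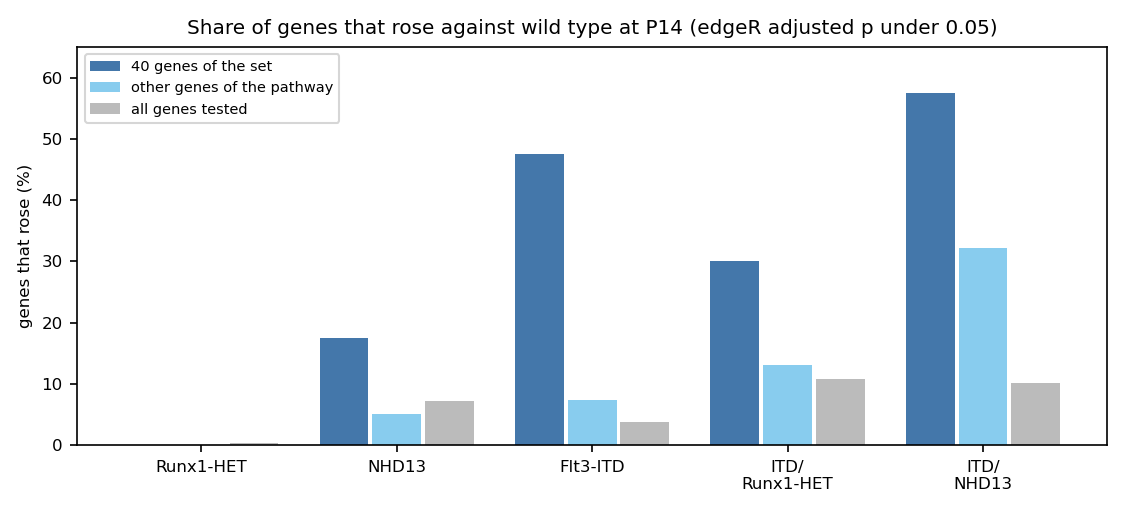
Share of genes (y axis, percent) that rose against the P14 wild type in each genotype (x axis), for the 40 genes of the set, 137 other genes of the pathway and all genes tested. In Flt3-ITD these shares were 47.5% of the set, 7.3% of the other genes of the pathway and 3.84% of all genes. In Runx1-HET 0 genes of the set rose.

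Of the RNA polymerase I subunits outside the set, Polr1e and Polr1d rose in Flt3-ITD (0.62 ± 0.10, adjusted p = 4.84e-05 and 0.30 ± 0.08, adjusted p = 0.0212) and in ITD/NHD13 (0.40 ± 0.10, adjusted p = 0.00224 and 0.45 ± 0.08, adjusted p = 0.000163). Wdr3 and Utp14a, small subunit factors, rose in Flt3-ITD (0.35 ± 0.09, adjusted p = 0.0115 and 0.29 ± 0.09, adjusted p = 0.0318), as did the large subunit factors Mrto4 and Las1l and the helicase Ruvbl2. Of these 7 calls only that of Polr1e held whichever library was left out: without wild-type library 3 the 6 others were lost (adjusted p 0.0518 to 0.159), and without Flt3-ITD library 2 all of them but Polr1d were (0.0681 to 0.291). With the term for the Y-linked split all 6 were lost too (0.0502 to 0.271), and Ruvbl2, Utp14a, Mrto4 and Polr1d also without the filter on low counts (0.0553 to 0.107), Ruvbl2 and Utp14a also with library totals (0.0886 and 0.0514). In NHD13, Wdr3, Utp14a, Ruvbl1, Tex10 and the helicase Ddx24 (0.36 ± 0.07, adjusted p = 0.000818) rose and the spermine oxidase Smox fell (-0.46 ± 0.15, adjusted p = 0.0411). Ddx24 kept its call whichever library was left out. Wdr3, Utp14a, Ruvbl1 and Tex10 lost theirs without wild-type library 3 (adjusted p 0.0611 to 0.113) or 4 (0.0506 to 0.146), and Smox lost it without any 1 NHD13 library or wild-type library 2, 3 or 4 (adjusted p 0.0617 to 0.199). With the term for the Y-linked split the NHD13 calls of Wdr3, Ruvbl1, Tex10 and Smox were lost (0.0551 to 0.128), without the filter on low counts those of Utp14a, Ruvbl1, Tex10 and Smox (0.0594 to 0.113), and with library totals those of Utp14a and Tex10 (0.0582 and 0.0543). In ITD/NHD13 the largest were the nucleoplasmin relative Npm3 (1.07 ± 0.31, adjusted p = 0.0125), the U3 particle protein Imp3 (0.93 ± 0.17, adjusted p = 8.91e-05), Utp18 (0.84 ± 0.21, adjusted p = 0.00449) and Naf1, an assembly factor of box H/ACA particles (0.72 ± 0.18, adjusted p = 0.00401). Tcof1, a nucleolar partner of RNA polymerase I, rose by 0.44 ± 0.11 (adjusted p = 0.00385) and Ddx24 by 0.57 ± 0.07 (adjusted p = 9.12e-07) there. The exosome genes Dis3 and Exosc9 and the polyamine gene Amd1 also rose. Npm3 lost its call without library 2 or 3 of ITD/NHD13 (adjusted p 0.0677 and 0.0571), Dis3 without those or wild-type library 1 (0.0588 to 0.0878), and Amd1 without library 1, 2 or 3 of that group or wild-type library 3 or 4 (0.0578 to 0.1), without the filter (0.0733) and with the term for the Y-linked split (0.0772).

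Among MYC genes, Myc rose against the P14 wild type in Flt3-ITD and Mycn in the 3 genotypes with Flt3-ITD. Over the 6 P14 groups edgeR's test gave an adjusted p of 0.01 for Myc and 8.07e-06 for Mycn. Myc lay at 452, 538, 557 and 638 CPM in the P14 wild type, 621, 677, 757 and 932 in Flt3-ITD, 572, 577, 588 and 786 in ITD/NHD13 and 573, 681, 735 and 784 in Runx1-HET. It lay at 482, 506, 535 and 612 in NHD13 and 518, 519, 528 and 662 in ITD/Runx1-HET. Wild type and Flt3-ITD overlap, through wild-type library 1. Myc rose by 0.45 ± 0.13 (adjusted p = 0.0258) in Flt3-ITD, a call lost without Flt3-ITD library 1 or 2 (adjusted p 0.0527 and 0.138) or wild-type library 2 or 3 (0.0582 and 0.125), with the term for the Y-linked split (0.192) and without the filter on low counts (0.0782). Myc was at 0.21 ± 0.13 (adjusted p = 0.275) in ITD/NHD13 and 0.34 ± 0.13 (adjusted p = 0.356) in Runx1-HET. It did not pass in NHD13 or ITD/Runx1-HET either. Mycn lay at 29.1, 52.6, 54.3 and 61.5 CPM in the wild type and 96.2, 97.4, 103 and 108 in ITD/NHD13, with no overlap. Mycn rose by 1.03 ± 0.17 (adjusted p = 5.7e-05) there, by 0.82 ± 0.17 (adjusted p = 0.00102) in ITD/Runx1-HET and by 0.60 ± 0.17 (adjusted p = 0.0284) in Flt3-ITD, the last lost without Flt3-ITD library 3 or 4 (0.0782 and 0.106) or wild-type library 1 (0.0568), with the term for the Y-linked split (0.0768), with library totals (0.0577) and without the filter on low counts (0.0794). In NHD13 Mycn was at 0.47 ± 0.17 (adjusted p = 0.0649), and passed without NHD13 library 3 (0.033) or wild-type library 2 (0.0249) and in DESeq2 (0.0374). In Runx1-HET Mycn was at -0.21 ± 0.17 (adjusted p = 0.791). Mxd3, a partner of MAX that opposes MYC, fell in every P14 genotype but Runx1-HET, where it did not pass. Its change was -0.83 ± 0.16 (adjusted p = 0.000236) in ITD/NHD13, and it was named after its values were seen. At P0 Myc was at 0.19 ± 0.19 (adjusted p = 0.779) in Flt3-ITD and -0.63 ± 0.19 (adjusted p = 0.139) in ITD/NHD13, where it passed without wild-type library 2 (0.0444), and Mycn was at 0.29 ± 0.22 (adjusted p = 0.695) and 0.73 ± 0.22 (adjusted p = 0.133).

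Odc1, the ornithine decarboxylase that supplies the substrate of the polyamine path in which Srm acts, was counted at 9.52, 9.6, 10.7 and 12.8 CPM in the P14 wild type and 13.2, 13.2, 13.4 and 13.9 in Flt3-ITD. It stood without overlap between these groups yet did not pass (0.34 ± 0.15, adjusted p = 0.174), and it passed in none of the 7 comparisons with a wild type. In ITD/NHD13 it was at 0.32 ± 0.15 (adjusted p = 0.121) and passed without library 1 of that group (adjusted p 0.0112). Of 10 polyamine genes outside the set, 0 passed in Flt3-ITD.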

How the data were processed

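Per the labels' protocols, RNA came from a Qiagen RNAeasy micro plus kit and the libraries from a Clontech kit named as SMRTr. The authors deposited raw read counts per gene, in 1 table for P14 and 1 for P0. Per the submitters' processing notes, STAR 3.0.4, Subread and featureCounts 1.4.5 were used; the genome build, annotation and strand setting are not given in the sources used here. Of 40 samples in the labels, 36 in 9 groups matched a column; 4 P0 columns matched no sample and were not used, and 276 repeated rows of the P0 table were dropped. The 54 pairs of libraries within groups all differed beyond sampling noise (chi-square per degree of freedom 9.85 or more).

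Genes with low counts were removed with filterByExpr (99.9% of counts kept), and each age was fitted with all its groups by edgeR 4.0.16 (quasi-likelihood F test, TMM, robust) in R 4.3.3, with Benjamini-Hochberg adjusted p under 0.05 as the threshold. These are the adjusted p-values in the text, and ± gives the SE. Age differences came from 1 fit of all libraries. The same code was tested on simulated data. Values in the libraries are CPM, which were computed from the deposited counts. Python 3.11.15 did the rest.

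The 40 genes and all lists were chosen with earlier results of these data known. Genes given with values are the 8 with the highest and the 3 with the lowest F over the P14 groups, up to 4 called genes in each direction per comparison, the 3 highest and lowest per length, up to 2 called genes per pathway list and direction, and Myc, Mycn and Odc1; any others (Nop58, Pes1, Gar1, Nop2, Mxd3) were chosen after their values were seen. Alternatives were DESeq2 1.42.0, other size factors (RLE, library totals), no filter, a replicate block, a term for sex and leaving out each library.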

Additional observations from a re-analysis of the deposited data

Results flagged for a closer look

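In groups of 4 libraries, a library was marked where its gap to the nearest other exceeded Dixon's critical value as a share of the group's range. This held in 5 of 108 groups checked, and chance marks about 1 in 20. In Flt3-ITD at P14, library 2 had a mean log2 CPM over the 40 genes of 7.221, against 6.946 to 6.973 in the other 3. For Srm, the same library lay at 40.5 CPM against 34.6 to 34.8, and library 3 of ITD/Runx1-HET lay at 45.2 CPM against 33.9 to 34.9. For Utp4, P0 wild-type library 2 lay at 190.4 CPM, below the others at 220.1 to 224.4. For Wdr12, P0 Flt3-ITD library 2 lay at 327.9 CPM, below the others at 361.5 to 364.6.

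The change of Polr1b in ITD/NHD13 against the wild type differed between the ages, by 0.67 on the log2 scale in edgeR's test of that difference, more positive at P14.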

How the results depend on the processing

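For the 79 results for single genes, 1141 of 1294 values under alternatives kept their side of the threshold. Of the others, 148 lost the call and 5 gained it. Where a fold change was called in the main or the alternative fit, 0 changed sign. Sign was not checked for uncalled values, and tests over all groups have none. Leaving out each library in turn gave these counts of the 40 genes called, lowest to highest: P14 groups 19 to 27, P0 groups 0 to 2, Flt3-ITD 10 to 21, NHD13 2 to 9, Runx1-HET 0 to 1, ITD/NHD13 18 to 25, and ITD/Runx1-HET 7 to 14. Against single mutants they were 0 to 3 for ITD/NHD13 against Flt3-ITD and 0 to 3 against NHD13, and 0 to 6 for ITD/Runx1-HET against Flt3-ITD and 0 to 3 against Runx1-HET. The interaction of ITD/Runx1-HET gave 0 to 4 and that with NHD13 0 to 0. At P0, Flt3-ITD gave 0 to 0, ITD/NHD13 0 to 0 and the latter against Flt3-ITD 0 to 3. The age difference gave 0 to 0 for Flt3-ITD and 0 to 9 for ITD/NHD13.

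DESeq2 called 3 genes over the P0 groups, 2 in P0 Flt3-ITD, 3 in P0 ITD/NHD13 against Flt3-ITD, 2 in ITD/NHD13 against NHD13, 3 in ITD/Runx1-HET against Runx1-HET, 1 in the interaction of Flt3-ITD and Runx1-HET and 2 in the age difference of ITD/NHD13. Library totals gave 0 over the P0 groups, 4 in ITD/NHD13 against NHD13 and 2 in ITD/Runx1-HET against Runx1-HET, where RLE factors also gave 2. Without a filter NHD13 gave 4. A term for sex gave 8 in Flt3-ITD, 3 in NHD13, 1 in ITD/Runx1-HET against Flt3-ITD, 2 over the P0 groups and 3 in P0 ITD/NHD13 against Flt3-ITD. The cause was not tested in any of these. These counts, those with a library left out and those of the replicate block below are given here without the share of all genes called under the same setting. They show only how the calls in the set moved.

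Whether the replicate numbers pair the samples cannot be settled from these correlations. Same-numbered P14 libraries had correlated deviations of -0.145 to 0.373 (median 0.00451, 60 pairs). Those with different numbers had -0.31 to 0.255 (median -0.00255). At P0 same-numbered libraries had -0.183 to 0.348 (median 0.102, 12 pairs, against a median of -0.0205 for different numbers). With the replicate block 21 genes were called in Flt3-ITD, 8 in NHD13, 24 in ITD/NHD13, 13 in ITD/Runx1-HET and 22 over the P14 groups. The block gave 1 for ITD/NHD13 against Flt3-ITD, 4 for ITD/Runx1-HET against Flt3-ITD and 2 against Runx1-HET, 2 for its interaction and 2 for the age difference of ITD/NHD13.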

Other observations

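Pes1, a large subunit factor that works with Bop1 and Wdr12, split within groups more than the other genes did at P0. Its libraries lay at 59.4, 63.3, 136.4 and 139.8 CPM in the P0 wild type, 75.9, 129.9, 157.4 and 235.2 in ITD/NHD13 and 170.9, 177.4, 186.3 and 305.3 in Flt3-ITD. The median coefficient of variation of Pes1 within groups was 44.3% at P0 and 15.0% at P14, against 15.5% and 8.8% for the median gene of the set. Exons of Pes1 overlap the opposite-strand gene 4930556J24Rik over 4.6% of their length.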
